A study of Mus musculus with 27 samples.

Results

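Retinoic acid signalling was examined through 10 genes: *Aldh1a1*, *Aldh1a2* and *Aldh1a3*, *Cyp26a1* and *Cyp26b1*, and the receptor genes *Rara*, *Rarb*, *Rarg*, *Rxra* and *Rxrb*. The rule for their regions used gene annotation and not the decreased lists. For each gene, every merged H3K4 methylation region was taken that touched the gene body or lay within 5 kb of an annotated transcription start site (TSS) in GENCODE vM1. This gave 169 of the 358833 merged regions.

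The study used ChIP-Seq to compare H3K4 methylation between E11.5 mouse hearts of both genotypes, in C57BL/6 embryos that all carried the *Tnnt2::Cre* transgene and the mTmG/+ reporter of Cre activity. The mutants were *Tnnt2::Cre;Kmt2d fl/fl* and the controls *Tnnt2::Cre;Kmt2d fl/+*, so the controls also lose 1 functional copy of *Kmt2d* in the cells where Cre acts. Each genotype had 3 pools of 30 hearts, and H3K4me1, H3K4me2, H3K4me3 and input libraries gave 24 heart libraries in 8 groups of 3. The other 3 of the 27 libraries, KMT2D ChIP-Exo from cardiomyocytes derived from embryonic stem cells, were not analysed here. The *Tnnt2* promoter drives Cre in heart muscle cells, whereas the hearts were profiled whole, with their endocardium, epicardium and other cells. In such pools, fewer cells carrying a mark and less of the mark per cell cannot be told apart.

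The values are positions. The deposited lists give a chromosome, a start and an end for each merged H3K4me1, H3K4me2 or H3K4me3 region, and for the 2730 and 6699 of them that the authors listed as lower in mutant hearts for H3K4me1 and for H3K4me2. The study states a false discovery rate under 0.1 for its decreased regions, but the deposited H3K4me2 list is longer than the one its text describes, so whether all of it met that rate is unknown. The deposited lists were used whole for every count and background share below. They hold no read depth and no value per replicate, so no error, fold change or test could be given, and a region outside a decreased list may still have changed. All 9257 distinct decreased regions were identical to a merged region. Marker genes of the tissue were looked at: all 7 heart muscle, all 4 endothelial and all 4 epicardial markers had a TSS inside a region. Of 4 markers of other tissues, *Alb* and *Cd3e* had none, *Ins2* had 160 bp and *Pax6* had 5580 bp. That was wider than the 3880 bp of the endothelial *Pecam1* and the 3540 bp of the epicardial *Upk3b*. A TSS in a region is common, found in 15752 of the 20025 protein-coding genes with a region, so these counts cannot verify the tissue. Changes in H3K4me3 alone were not analysed here.

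Retinoic acid is made from vitamin A by oxidation of retinol to retinal and of retinal to retinoic acid. The *Aldh1a* genes encode the retinaldehyde dehydrogenases of that last step, and the *Cyp26* genes encode the cytochrome P450 enzymes that clear retinoic acid. The acid binds nuclear receptors of the RAR family, which sit on DNA as dimers with RXR partners. Their binding elements are direct repeats of a short half-site, named by the spacer between the repeats: DR5 and DR2 are the classical retinoic acid response elements, and DR1 is used by several RXR dimers. The pathway is known for patterning the heart tube along its axis and for the growth of the ventricular wall, and the epicardium is a source of retinoic acid in the fetal heart.

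The sequences below were read from mouse assembly NCBIM37 (mm9) and are written 5′ to 3′. The first pair are the 200 bases upstream of the start sites of *Rarb-202*, at chr14:17407987-17408186 on the minus strand, and of *Cyp26a1*, at chr19:37772098-37772297 on the plus strand. They are shown because, among the 43 member start sites, these were the only ones with a DR5 match in the 250 bp upstream. Capitals mark the half-sites, and in *Cyp26a1* the element lies on the opposite strand, so that its reverse complement is printed.
Rarb-202 upstream: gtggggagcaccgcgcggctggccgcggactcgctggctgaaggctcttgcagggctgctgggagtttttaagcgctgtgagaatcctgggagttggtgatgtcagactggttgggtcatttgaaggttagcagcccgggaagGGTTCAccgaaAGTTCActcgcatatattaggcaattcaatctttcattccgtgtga
Cyp26a1 upstream: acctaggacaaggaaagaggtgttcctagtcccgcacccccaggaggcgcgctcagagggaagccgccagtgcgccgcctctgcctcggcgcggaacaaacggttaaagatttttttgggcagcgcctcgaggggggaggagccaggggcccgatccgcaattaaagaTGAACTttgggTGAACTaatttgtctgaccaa

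The next 4 sequences come from regions in a decreased list. They are the 200 bases upstream of the first *Cyp26b1* start at chr6:84543741-84543940 on the minus strand, the surroundings of a DR5 in *Rara* at chr11:98821255-98821405 on the plus strand, those of a DR1 in an intron of *Rarb* at chr14:17329188-17329338 on the minus strand, and the centre of an intronic region of *Rxra* at chr2:27585100-27585250 on the plus strand. Capitals again mark half-sites, with the *Rarb* repeat printed as its reverse complement because it lies on the strand opposite to the gene, and the *Cyp26b1* and *Rxra* sequences, all in lower case, hold none of the searched repeats.
Cyp26b1 upstream: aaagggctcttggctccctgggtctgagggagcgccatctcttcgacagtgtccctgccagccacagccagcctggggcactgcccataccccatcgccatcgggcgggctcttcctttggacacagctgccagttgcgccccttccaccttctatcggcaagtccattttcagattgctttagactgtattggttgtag
Rara DR5: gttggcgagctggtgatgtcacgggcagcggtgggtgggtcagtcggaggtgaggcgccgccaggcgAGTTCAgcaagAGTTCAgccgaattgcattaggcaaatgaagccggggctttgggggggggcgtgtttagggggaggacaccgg
Rarb intronic DR1: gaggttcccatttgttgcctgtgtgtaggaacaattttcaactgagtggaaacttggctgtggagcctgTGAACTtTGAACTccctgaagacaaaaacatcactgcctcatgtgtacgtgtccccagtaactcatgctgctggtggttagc
Rxra intronic centre: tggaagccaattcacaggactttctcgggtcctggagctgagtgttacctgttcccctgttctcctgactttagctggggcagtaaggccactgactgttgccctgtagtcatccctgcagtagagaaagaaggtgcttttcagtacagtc

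Every one of the 10 genes had a TSS inside a merged region, and 5 of them held a region in a decreased list. The H3K4me1 list held 3 member regions, at *Cyp26b1*, *Rarb* and *Rxra*. The H3K4me2 list held 2, at *Rara* and *Rxrb*. No member region was in both lists, and none at *Aldh1a1*, *Aldh1a2*, *Aldh1a3*, *Cyp26a1* or *Rarg* was in either. Regions in both lists were rare in the whole series too: the lists of 2730 and 6699 regions held 9257 distinct ones. All 3 genes that encode an enzyme making retinoic acid were without a decreased region. Of the 2 clearance genes 1 had one, and of the 5 receptor genes 4 had one. The share of all protein-coding genes with a region in either list was not computed. It was 7.08% for H3K4me1 alone and 28.7% for H3K4me2 alone. With so few genes per role, a difference between roles was not tested.

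These counts were set beside all merged regions. H3K4me1 was decreased at 1.78% of the member regions, against 0.761% of all merged regions, and H3K4me2 at 1.18%, against 1.87%. Counted by gene, 30.0% of the members had decreased H3K4me1, against 7.08% of the 20025 protein-coding genes with a region by the same rule. For H3K4me2 it was 2 of the 10 members, against 28.7%. The 10 members held 169 regions, 79 of them at *Rarb*, where the median protein-coding gene had 5.00. The part of region number in the shares by gene was not tested. Each gene weighs heavily in a set of 10, and whether either share differs from its background was not tested.

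Member regions were wide, and the decreased ones were among the wider. The median width was 640 bp, against 320 bp for all merged regions, and 26.6% were at least 2000 bp wide, against 11.2%. The 5 decreased regions measured between 2220 and 13600 bp, and 41 of the 169 member regions were as wide as the narrowest of them. Among the 45 member regions of at least 2000 bp, 6.67% had decreased H3K4me1, against 3.07% of all regions of that width, and 4.44% had decreased H3K4me2, against 11.1%. The part of width in the calls was not tested.

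**Figure D1:**
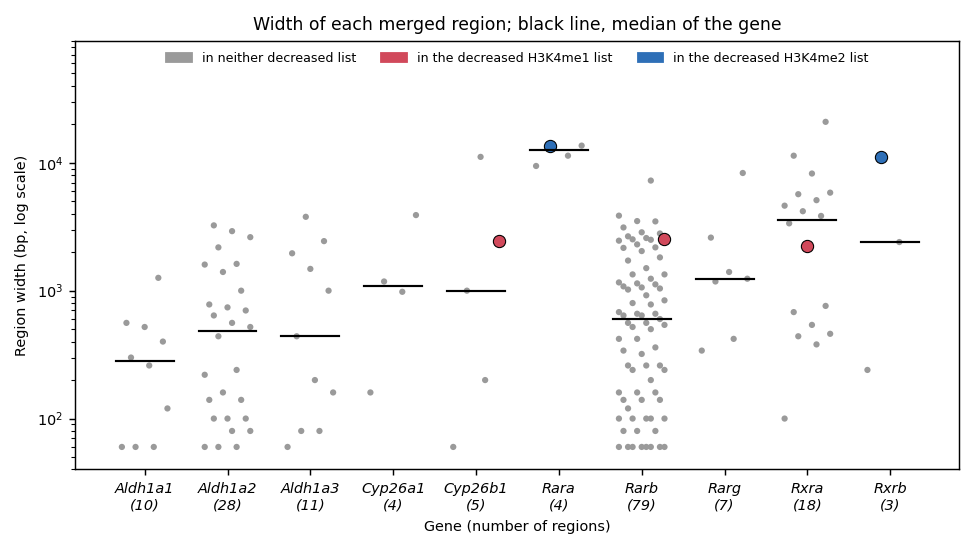
Width of every merged region (bp, log scale) at each of the 10 genes, with the number of regions under the gene symbol; each point is 1 region, larger coloured points are regions in a decreased list, and black lines are medians. The 4 *Rara* regions all measure at least 9440 bp, whereas most of the 79 *Rarb* regions sit under 2000 bp, and no decreased region is narrower than 2220 bp.

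Of the 169 regions, 119 lay wholly in introns, 23 touched an exon without a TSS, 18 covered a TSS, 7 lay upstream and 2 downstream of a gene. The 18 TSS regions had a median width of 5580 bp (range 680 to 20900 bp), against 3220 bp for the 17752 regions over a protein-coding TSS, and the other 151 had a median of 540 bp. Decreased H3K4me1 covered a TSS in 1 of the 18 (5.56%, against 1.18% of all such regions). Decreased H3K4me2 did so in 2 of the 18 (11.1%, against 22.5%). By gene, a TSS lay in a region of decreased H3K4me1 in 1 of the 10 members, against 1.29% of the 15752 protein-coding genes with a TSS in a region, and in a region of decreased H3K4me2 in 2 of the 10, against 29.2%.

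**Figure D2:**
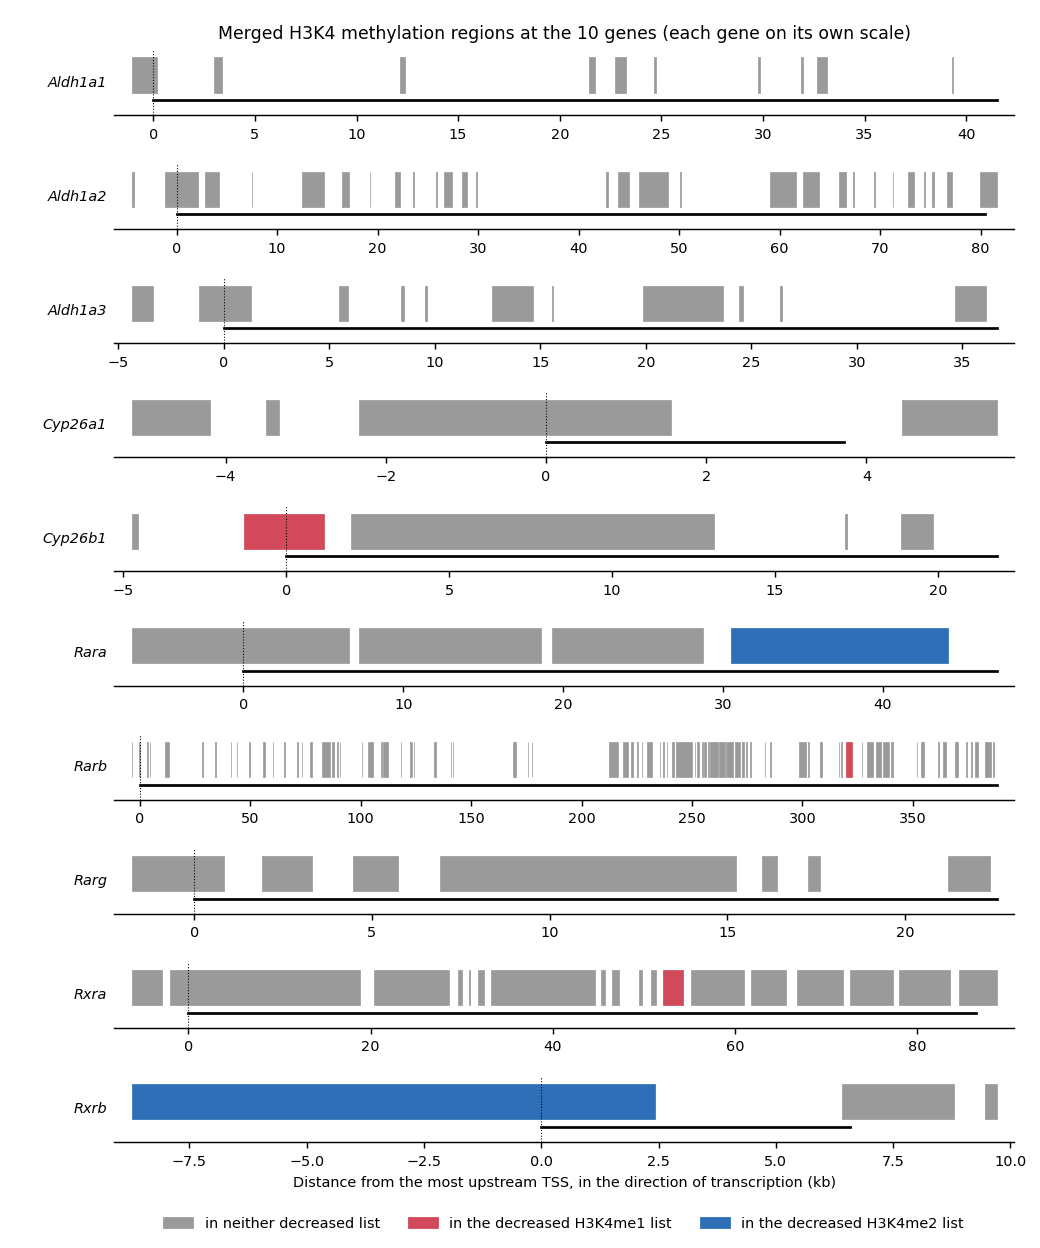
Merged regions (boxes) at the 10 genes, each on its own scale, by distance in kb from the most upstream TSS (dotted line) along the direction of transcription; the black line is the gene body, and red and blue mark regions with decreased H3K4me1 and H3K4me2. The decreased regions of *Rarb* and *Rxra* lie far inside the gene, that of *Cyp26b1* covers its first TSS, and those of *Rara* and *Rxrb* are the blue boxes over start sites.

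Among the genes that make retinoic acid, *Aldh1a1*, which encodes an isozyme abundant in adult liver, had the least marking. It lies at chr19:20676451-20717952 on the plus strand. Its 10 regions had a median width of 280 bp and covered 7.74% of the 46502 bp searched, and 20.3% of protein-coding genes had a smaller share covered. The region over its TSS, chr19:20675386-20676645, was 1260 bp wide, and only 7.87% of the 15752 genes had a narrower widest TSS region. None of its regions reached 2000 bp.

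*Aldh1a2* encodes the main retinoic acid producing enzyme of the embryo and is expressed in the epicardium. It lies at chr9:71063596-71144050 on the plus strand and had 28 regions, more than 91.9% of protein-coding genes. They were narrow for the most part, with a median of 480 bp, and covered 25% of its span, where the median gene had 21.9%. The region over its TSS ran from 1110 bp upstream to 2129 bp downstream. A further 3 regions were at least 2000 bp wide, at 12490, 46010 and 59030 bp from the TSS, the middle one over a coding exon and the other two in introns. None of the 28 was in a decreased list.

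*Aldh1a3*, the third retinaldehyde dehydrogenase gene, lies at chr7:73535778-73572403 on the minus strand, with 11 regions over 28.1% of its span. The region over the start sites of *Aldh1a3-001* and *Aldh1a3-002* was 2440 bp wide. A wider region, of 3780 bp at chr7:73548746-73552525, covered the start of the transcript *Aldh1a3-004* and coding exons inside the gene. The start sites of *Aldh1a3-003* and *Aldh1a3-005* lay in no region. None of its regions was in a decreased list.

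Regions covered 54.2% of the searched span at *Cyp26a1* and 55.4% at *Cyp26b1*, the clearance genes, against a median of 21.9%. *Cyp26a1*, a gene that retinoic acid itself induces, lies at chr19:37772298-37776018 on the plus strand. It had 4 regions, or 4.00 regions per 10 kb, a density above that of 97.0% of protein-coding genes. Its TSS region was 3900 bp wide and reached from 2332 bp upstream to 1567 bp downstream. The other 3 regions were at most 1180 bp wide and lay outside the gene body. No region at *Cyp26a1* was in a decreased list.

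*Cyp26b1*, which encodes another clearance enzyme, lies at chr6:84521938-84543740 on the minus strand and had 5 regions, or 1.87 per 10 kb against a median of 2.00. The region over its most upstream start site was in the H3K4me1 list. It lies at chr6:84542586-84545045, is 2460 bp wide, runs from 1305 bp upstream to 1154 bp downstream of the TSS, and holds untranslated exon sequence. It was the only member TSS region with decreased H3K4me1. Just 840 bp away, a region of 11120 bp at chr6:84530626-84541745 covered the inner start site of the gene and coding exons, and was in neither list. The next region of decreased H3K4me1 lay 357 kb away, near *Exoc6b*, and the next of decreased H3K4me2 lay 150 kb away.

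With regions pooled, the receptor genes had wider regions than the enzyme genes, but this did not hold gene by gene. The median width was 600 bp at *Rarb*, against 1080 bp at *Cyp26a1* and 1000 bp at *Cyp26b1*. The 5 receptor genes had 111 regions with a median width of 780 bp, 36 of them at least 2000 bp wide, and 4 were decreased. The 5 enzyme genes had 58 regions with a median of 440 bp, 9 of them at least 2000 bp wide, and 1 was decreased. *Rarb* alone held 79 of the receptor regions. Without it, the other 4 receptor genes had 32 regions, fewer than the enzyme genes, with a median of 2980 bp and 3 decreased. The share of all merged regions in either list was not computed. It was 0.761% for H3K4me1 alone and 1.87% for H3K4me2 alone. Among merged regions of at least 2000 bp these shares were 3.07% and 11.1%. The genes differ in length and in their number of wide regions, and this contrast was not tested.

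*Rara* encodes RARα, the receptor found in most tissues. It lies at chr11:98789132-98836256 on the plus strand, and 4 regions of 13620, 11360, 9440 and 13600 bp covered 88.3% of its span, more than in 99.0% of protein-coding genes. All 8 of its start sites lay inside 3 of these regions. The last region in the direction of transcription, chr11:98819626-98833225, was in the H3K4me2 list. It covers the start sites of *Rara-004* and *Rara-202* inside the gene, coding exons and untranslated exon sequence, from 2100 bp upstream to 11499 bp downstream of the first of them. The regions over the most upstream start, that of *Rara-003*, and over the 5 start sites next to it were in neither list. The nearest other region of decreased H3K4me2 was 45.9 kb away, at chr11:98761626-98773745 over the TSS of *Cdc6*, a DNA replication licensing gene.

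*Rarb* encodes RARβ, whose gene carries a well known retinoic acid response element at its inner promoter. It is the longest member, 388026 bp at chr14:17263356-17651381 on the minus strand, and had 79 regions, more than 98.6% of protein-coding genes. Per length it was near the median, with 2.01 regions per 10 kb against 2.00, and 21.1% of the span covered. Its start sites differed: the region over that of *Rarb-202* was 7260 bp wide, whereas the region over that of *Rarb-201* and *Rarb-203*, the most upstream, was 680 bp wide and the narrowest of the 18. Neither was in a decreased list.

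The decreased region of *Rarb*, chr14:17328926-17331445, was in the H3K4me1 list. It is 2520 bp wide and lies inside an intron of 65095 bp, which is intron 4 of 8 in *Rarb-201* and intron 3 of 7 in *Rarb-202*. The nearest *Rarb* start was 76541 bp away. It was 1 of 17 *Rarb* regions of at least 2000 bp, and the other 16 were in neither list, among them 3 intronic regions of 2040 to 2800 bp within the same intron. The regions next to it, 4.60 kb and 2.16 kb away, were 100 and 140 bp wide. The next region of decreased H3K4me1 was 1063 kb away, near *Lrrc3b*, and the next of decreased H3K4me2 was 128 kb away, at the DNA topoisomerase gene *Top2b*.

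*Rarg* encodes RARγ and lies at chr15:102065369-102087948 on the minus strand. It had 7 regions over 56.2% of its span, and all 6 start sites lay inside a region. A region of 8320 bp covered 4 of them and a region of 2600 bp, over the most upstream start, covered the other two. None was in a decreased list, although 2 decreased regions lay within 50 kb. One, of 2100 bp at chr15:102100346-102102445 over the TSS of *Gm9918*, had decreased H3K4me1. The other, of 4660 bp at chr15:102125666-102130325 over the TSS of the separase gene *Espl1*, had decreased H3K4me2.

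*Rxra* encodes RXRα, the RXR whose loss in mice thins the ventricular wall. It lies at chr2:27531960-27618477 on the plus strand, and its 18 regions covered 82.2% of the span, more than in 98.1% of protein-coding genes. The region over its most upstream start sites, chr2:27529946-27550845, was 20900 bp wide, the widest at any member, and 98.9% of genes had a narrower widest TSS region. A region of 11360 bp covered the start of *Rxra-003* and one of 3840 bp that of *Rxra-005*, while the start of *Rxra-002* lay in no region. None of these TSS regions was in a decreased list.

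The decreased region of *Rxra*, chr2:27584066-27586285, was in the H3K4me1 list. At 2220 bp it is the narrowest decreased member region. It lies in the first intron of *Rxra-001*, 59838 bp long, at 9436 bp from the nearest TSS. It was 1 of 11 *Rxra* regions of at least 2000 bp, and its neighbours, of 540 bp at 0.780 kb and of 5840 bp at 0.900 kb, were in neither list. The next region of decreased H3K4me1 was 331 kb away, near *Vav2*, and the next of decreased H3K4me2 was 186 kb away, near *Wdr5*. *Wdr5* encodes a core subunit of the H3K4 methyltransferase complexes.

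*Rxrb* encodes RXRβ and is the second shortest member, at chr17:34168757-34175338 on the plus strand within a gene-dense stretch. A region of 11160 bp, chr17:34160026-34171185, covered 8 of its 11 start sites and was in the H3K4me2 list. It reached 8731 bp upstream of *Rxrb*, and also covered the start sites of *Ring1*, *Slc39a7*, *H2-Ke6*, *Mir219-1* and *Gm20427*. It was the only 1 of the 18 TSS regions that held the TSS of another gene, so which gene its decrease belongs to cannot be told apart from its position. *Ring1* encodes a Polycomb protein and *Slc39a7* a zinc transporter. The starts of *Rxrb-007*, *Rxrb-008* and *Rxrb-009* lay in no region. A region of 2400 bp at its far end covered the TSS of *Col11a2* and was in neither list.

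**Figure D3:**
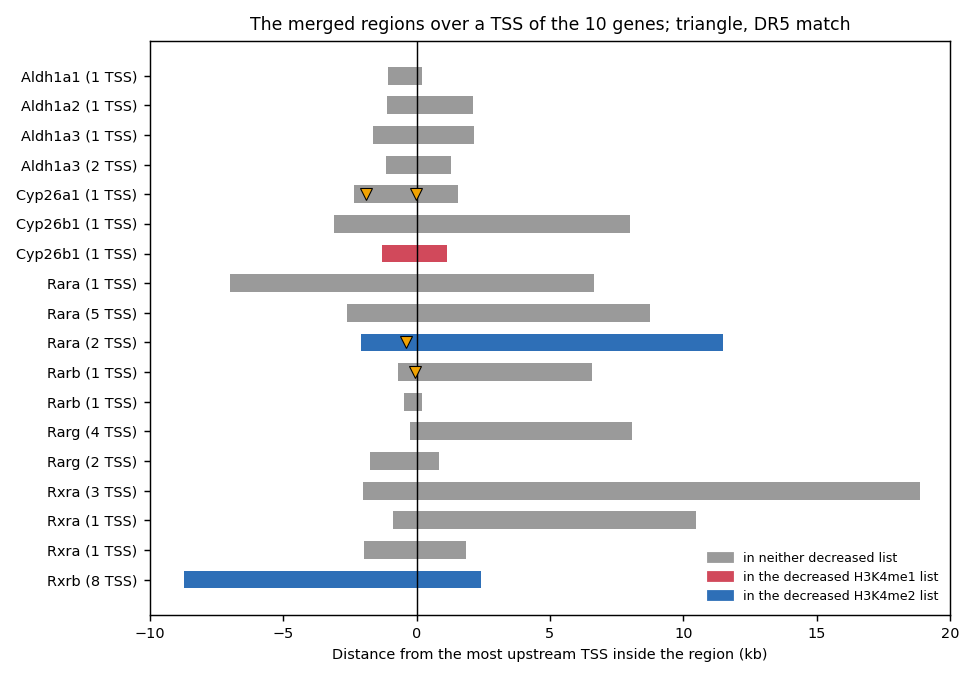
Extent of the 18 merged regions over a member TSS, in kb from the most upstream TSS inside each region (0), with the number of member start sites inside; grey, in neither decreased list, red, decreased H3K4me1, blue, decreased H3K4me2, and triangles mark DR5 matches. The bars reach from 8731 bp upstream at *Rxrb* to 18885 bp downstream at *Rxra*, and the triangles sit in *Cyp26a1*, *Rara* and *Rarb* regions.

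The order of the genes depended on the measure. By share of span covered, it ran from *Rara* (88.3%) and *Rxra* (82.2%) through *Rxrb*, *Rarg*, *Cyp26b1*, *Cyp26a1*, *Aldh1a3* and *Aldh1a2* to *Rarb* (21.1%) and *Aldh1a1* (7.74%). By number of regions, *Rarb*, *Aldh1a2* and *Rxra* came first, and *Rxrb*, with 3, came last. In all, 36.3% of the searched span lay in a merged region. The 5 genes with a decreased region included *Rara*, *Rxra* and *Rxrb*, at the top of the order by share covered, and *Rarb*, near its end. The lists hold no values per pool, so which neighbours in these orders differ beyond the spread between pools is unknown.

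**Figure D4:**
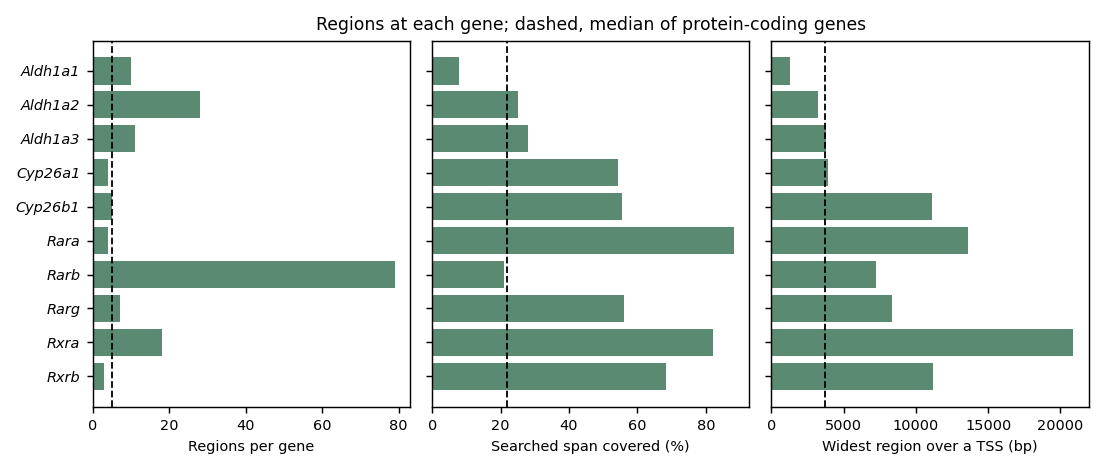
Number of merged regions, share of the searched span they cover (%) and width of the widest region over a TSS (bp) for each gene; bars are 1 value per gene with no replicate error, and dashed lines are medians of protein-coding genes (5.00 regions, 21.9% and 3720 bp). *Rarb* stands far out in number with 79 regions, and *Rxra* in width with 20900 bp.

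Half-sites were searched as AGGTCA or AGTTCA or GGGTCA or GGTTCA, in direct repeat with a spacer of 1, 2 or 5 bp, on both strands. Of the 169 member regions, 8 held a match. DR5 was found in 3 (1.78%, against 0.453% of all merged regions), DR1 in 3 (1.78%, against 0.752%) and DR2 in 2 (1.18%, against 0.668%). Member regions are wider than others, so the density was given too: 0.0134 DR5 matches per kb in member regions and 0.00536 in all merged regions. For DR1 the densities were 0.0101 and 0.00915, and for DR2 they were 0.00672 and 0.00807. A match is a string of letters and not evidence of binding.

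All 4 DR5 matches lay in TSS regions, 3 of the 18 (16.7%), where 1.65% of the 17752 regions over a protein-coding TSS held one. Member TSS regions are wider, and their density was 0.0301 matches per kb, against 0.00404. An element at the inner *Rarb* promoter was already known, and these differences were not tested. Of 70051 windows of 250 bp upstream of annotated start sites, 0.0699% held a DR5, 0.184% a DR1 and 0.106% a DR2. In *Rarb*, the element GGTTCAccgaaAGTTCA at chr14:17408027-17408043 lay 49 bp upstream of the *Rarb-202* start. In *Cyp26a1*, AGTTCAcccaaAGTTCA at chr19:37772266-37772282 lay 24 bp upstream of the start, and GGGTCAcaggcGGGTCA at chr19:37770399-37770415 lay 1891 bp upstream. In *Rara*, AGTTCAgcaagAGTTCA at chr11:98821322-98821338 lay 396 bp upstream of the *Rara-004* start. The *Rarb* and *Cyp26a1* TSS regions were in neither decreased list, whereas the *Rara* region was in the H3K4me2 list.

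The DR5 elements nearest to the start sites were compared base by base. Counting positions from 1 at the 5′ end, the *Cyp26a1* element nearest the TSS had the same base as that of *Rarb* at 15 of 17 positions, differing as A1G and C9G from *Cyp26a1* to *Rarb*. It shared 14 with that of *Rara*, differing as C7G, C9A and A11G. The *Rara* and *Rarb* elements shared 13. The other *Cyp26a1* DR5, 1891 bp upstream, shared 9 positions with the nearer one, 8 with the *Rara* element and 11 with the *Rarb* element. All searched half-sites read A or G, then G, then G or T, then TCA. Many of the shared positions were therefore fixed by the search, and likeness beyond that was not tested.

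Of the 5 decreased regions, 3 held a match. Beside the *Rara* DR5, the *Rarb* intronic region held the DR1 AGTTCAaAGTTCA at chr14:17329257-17329269, and the *Rxrb* region held the DR1 AGGTCAgAGGTCA at chr17:34164825-34164837, 3926 bp upstream of the TSS. Among merged regions within 10% of the same width, a DR5 was found in 4.40% for the *Rara* region. A DR1 was found in 2.06% for the *Rarb* region and 10.9% for the *Rxrb* region. These shares are for the repeat found, although any of the 3 would have counted as a match. At the *Rara* width, DR1 was found in 10.3% and DR2 in 11.4%. At the *Rarb* width, DR2 was found in 1.74% and DR5 in 1.61%. At the *Rxrb* width, DR5 was found in 4.71%, and DR2 was also less common than DR1. The share with any of the 3 repeats was not computed, and is at least the largest of these at each width. The *Cyp26b1* and *Rxra* regions held none of the 3 repeats. Outside decreased regions, *Rxra* held the DR1 GGGTCAtGGGTCA at chr2:27566249-27566261, 152 bp downstream of the *Rxra-003* start. The DR2 matches were GGTTCAcaGGGTCA, 4710 bp downstream of the *Cyp26a1* start, and GGGTCAagGGTTCA, near the end of *Rarb*.

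The 18 TSS regions had a GC content of 54.1% ± 4.59 (SD over regions, n = 18), and all regions over a protein-coding TSS had 50.8% ± 5.50. Their median CpG content, as observed over expected from base composition, was 0.311, against 0.429. The highest, 0.819, was that of the *Aldh1a2* TSS region, and the lowest, 0.0762, that of the 680 bp region at the *Rarb-201* start. The SD is over regions and is no replicate error. Wide regions hold flanking sequence beside the promoter: in windows about 500 bp wide, centred on the 43 start sites, the mean GC content of the members was 62.6%. Start sites that lie close together share sequence in that mean, and no value for all genes is given for this window.

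A list of 33 other retinoid pathway genes gave the setting. They had 443 regions, and 31 of them had a TSS in a region. H3K4me1 was decreased at 6 genes (18.2%, against 7.08% of protein-coding genes) and H3K4me2 at 10 (30.3%, against 28.7%). Both marks were decreased at 3 of these genes, and 20 had neither. The part of the number of regions per gene in these shares was not tested. This list, like the members, was chosen with results of these data known.

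By role, 1 of 6 uptake and binding genes had a decreased region, the retinol transporter gene *Stra6*. Its region of decreased H3K4me1, of 4080 bp, covered a start site and exon sequence with no annotated coding or untranslated part. It was 1 of 2 *Stra6* regions over a TSS, and the wider, of 8760 bp, was in neither list. Of 11 genes for retinol and retinal enzymes, 3 had decreased H3K4me2 (27.3%), near the 28.7% of protein-coding genes. In each it lay over a TSS, so 3 of the 10 with a TSS in a region had it there, against 29.2% of such protein-coding genes. They were *Rdh10*, whose enzyme makes the retinal that the *Aldh1a* enzymes use, in a region of 6480 bp shared with *Rpl7*, *Dhrs4* in 2300 bp, and the alcohol dehydrogenase gene *Adh5* in 2720 bp. *Dhrs4* also had a region of decreased H3K4me1, of 2440 bp, over the TSS of *Lrrc16b*. Neither the clearance gene *Cyp26c1* nor the receptor gene *Rxrg* had a decreased region.

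Coregulators, the proteins through which the receptors silence or activate genes, had calls at 5 of 6 genes. H3K4me1 was decreased at 3 of the 6, against 7.08% of protein-coding genes, and H3K4me2 at 4, against 28.7%. These 6 genes held 212 of the 443 regions, each had more than the median of 5.00, and the part of that in the counts was not tested. The corepressor gene *Ncor1* had decreased H3K4me2 over a TSS in 6820 bp shared with *Pigl*, and decreased H3K4me1 in an intronic region of 60 bp. The coactivator gene *Ncoa3* had 2 regions of decreased H3K4me2, of 3360 bp, shared with the TSS of *Gm11464*, and 3820 bp. *Ncoa2* had an intronic region of decreased H3K4me1 of 1680 bp. *Nrip1* had decreased H3K4me2 in 1 of 2 regions over a TSS, of 7960 bp, and the wider, of 14680 bp, was in neither list.

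Of 8 genes known as retinoic acid targets, 4 had a decreased region. H3K4me2 was decreased at 3 of the 8 (37.5%, against 28.7% of protein-coding genes) and H3K4me1 at 1 (12.5%, against 7.08%), so these counts were near the background. *Nr2f1*, which encodes an orphan nuclear receptor, had decreased H3K4me2 over its TSS in 13080 bp. The homeobox gene *Meis2* had decreased H3K4me2 in 1 of 4 regions over a TSS, its widest, of 25040 bp. *Meis1* had 3 regions of decreased H3K4me2, of 18200, 6860 and 1500 bp, the widest over its TSS. Each of these 3 decreased TSS regions, 1 per gene, also covered the start sites of 2 other annotated genes, as the *Meis1* region of 6860 bp did for 1. The transglutaminase gene *Tgm2* had 2 regions of decreased H3K4me1, of 2480 and 7260 bp, neither over a TSS.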

How the data were processed

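The authors sequenced ChIP and input libraries of control and mutant hearts. Per the labels, the tools were CASAVA 1.8.2, FastQC, Bowtie, Bowtie2 and SAMtools, on mm9. The study refers to its supplementary methods for the peak calling and the test behind the decreased lists, and these methods were not used here. The 3 deposited lists hold coordinates only, on a grid of 20 bp, with replicates pooled, so the depth of each sample and the precision it gives are unknown, and counting intervals and tests were not formed.

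Coordinates were made 1-based. Gene spans came from GENCODE vM1 on NCBIM37, and every region lay within its chromosome. A region was assigned by an overlap of at least 1 bp and called decreased when identical to a listed region. The genes named are the members, the pathway list and the nearest decreased neighbours. Some genes of the pathway list are not reported here by name. The members and lists were chosen with earlier results of these data known. Repeats were searched as exact strings. Overlap queries and the repeat search were tested on simulated data (500 of 500 right for each). Alternatives were the flank, transcript set, width and overlap rules. Python 3.11.15 and matplotlib 3.10.9 were used.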

Additional observations from a re-analysis of the deposited data

How the results depend on the processing

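Over 9 results, 42 of 51 alternatives stayed within 1.5 times the reported count or within the spread. The 169 member regions became 325 with a flank of 50 kb, 98 at widths of at least 500 bp and 45 at widths of at least 2000 bp, the last chosen after seeing the data. The 2 regions of decreased H3K4me2 became 4 with a flank of 50 kb, where the additions lie at *Cdc6* and *Espl1*, and 1 when regions had to lie wholly inside the searched span or when regions over the TSS of another gene were left out, which removes the *Rxrb* region. The number of genes with decreased H3K4me2 over a TSS fell from 2 to 1 when the most upstream TSS alone was used, which leaves *Rxrb*. The 3 regions of decreased H3K4me1 stayed 3 under every alternative except 50 kb, which gave 4. The mean GC content was 62.6% in windows about 500 bp wide, centred on the 43 start sites, instead of 54.1% over the 18 TSS regions. Regions with a repeat numbered 2 instead of 8 when only a window 500 bp wide, centred on each region, was searched. No paired analysis was possible because the lists hold no value per replicate, and leaving out replicates was not run for the same reason. The unknown depth limits every statement on regions outside the lists.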
